A study of Mus musculus with 5 samples.

Results

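Both mature arms of the mouse microRNA (miRNA) miR-21a, mmu-miR-21a-5p and mmu-miR-21a-3p (written miR-21a-5p and miR-21a-3p from here), were followed through the repair of aged skin. They were chosen by name, as all probes whose name begins with mmu-miR-21a-, and they are 2 of the 1900 mouse miRNAs on the array. Total RNA of back skin from female mice was labelled with Cy3 and hybridised to single-colour arrays, with 1 array for each of 5 conditions. Aged (2-year-old) skin was profiled unwounded (D0) and at D3, D5 and D7 after a full-thickness 3 mm punch wound made in telogen, the resting stage of the hair cycle, and the fifth array held unwounded skin of young (8-week-old) mice. Strain and genotype, and whether an array held RNA of 1 mouse or of several, are not given in the sources used here. Wounded young skin was not analysed here, so the response of the aged wound could not be set against that of a young one. With 1 array per condition there is no replicate error between mice, and the comparisons are given as ratios without a test or p-value.

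miR-21 is one of the most widely expressed mammalian miRNAs. Its hairpin is transcribed from within and downstream of the gene Vmp1, and Dicer cuts it into an abundant guide strand, miR-21a-5p, and a passenger strand, miR-21a-3p, which is usually degraded. The guide strand recognises messenger RNAs mainly through its seed, bases 2 to 8, and represses known targets such as Pdcd4, an inhibitor of translation. In skin it is known from keratinocytes, fibroblasts and macrophages, and its transcription responds to STAT3, AP-1 and TGF-beta signalling, pathways that are active in wounds.

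The mature sequences are shown because the seed and the 3′ end decide which related miRNAs could be measured by similar probes. They are written 5′ to 3′ with the seed in capitals. The sequences of miR-21a-5p, miR-21a-3p, miR-21b and miR-21c are those of RefSeq (GRCm38.p6), and the target sequence given for each of these 4 probes on the array was identical. That of miR-590-5p is the array's own target sequence.
miR-21a-5p: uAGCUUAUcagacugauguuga
miR-21a-3p: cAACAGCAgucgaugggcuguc
miR-21b: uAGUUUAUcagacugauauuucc
miR-21c: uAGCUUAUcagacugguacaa
miR-590-5p: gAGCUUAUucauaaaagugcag
miR-21a-5p lies at chr11:86584120-86584141 and miR-21a-3p at chr11:86584082-86584103, both on the minus strand of GRCm38.p6 and inside the span of Vmp1 (chr11:86583858-86683836), a protein-coding gene. The Mir21a hairpin (chr11:86584067-86584158) is printed to show how the arms sit in it, with miR-21a-5p (bases 18 to 39) and miR-21a-3p (bases 56 to 77) in capitals and the 16-base loop between them.
Mir21a hairpin: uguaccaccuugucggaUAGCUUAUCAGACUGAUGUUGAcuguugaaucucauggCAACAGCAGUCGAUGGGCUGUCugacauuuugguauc
miR-21b (chr3:29636768-29636790) matches miR-21a-5p at 18 of 22 positions, and C4U, counted from the 5′ end of miR-21a-5p, changes its seed. miR-21c (chr8:128278188-128278208) shares the first 15 bases and thus the seed, with A16G as the first difference. miR-590-5p carries the miR-21a-5p seed but matches it at only 8 of 22 positions.

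Each miRNA is represented by 2 spots on an array, and the scanned intensity of a spot is on a linear scale in arbitrary units. The 4 empty spots of each array set its detection level, at their 95th percentile. A miRNA with a mean intensity over this level was called detected, and one over 2 times the level was called bright. The detection level was 58.3 to 107, and 589 to 1768 miRNAs passed it on the 5 arrays. miR-21a-5p was detected and bright on all 5 arrays, at 19.5 to 177 times the level. miR-21a-3p was detected on 3 of them and was bright on none.

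The guide strand was dimmest in unwounded aged skin. The spots of miR-21a-5p read 2065 and 2048 at aged D0, before any normalization. After wounding they read 10145 and 10454 at D3, 5409 and 5097 at D5, and 13310 and 11692 at D7. In unwounded young skin they read 9118 and 8667. The spots of one array differed by 0.842% to 12.9%, and no spot of another array came near the pair of aged D0. On this raw scale the young array lay close to aged D3 and above aged D5.

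**Figure D1:**
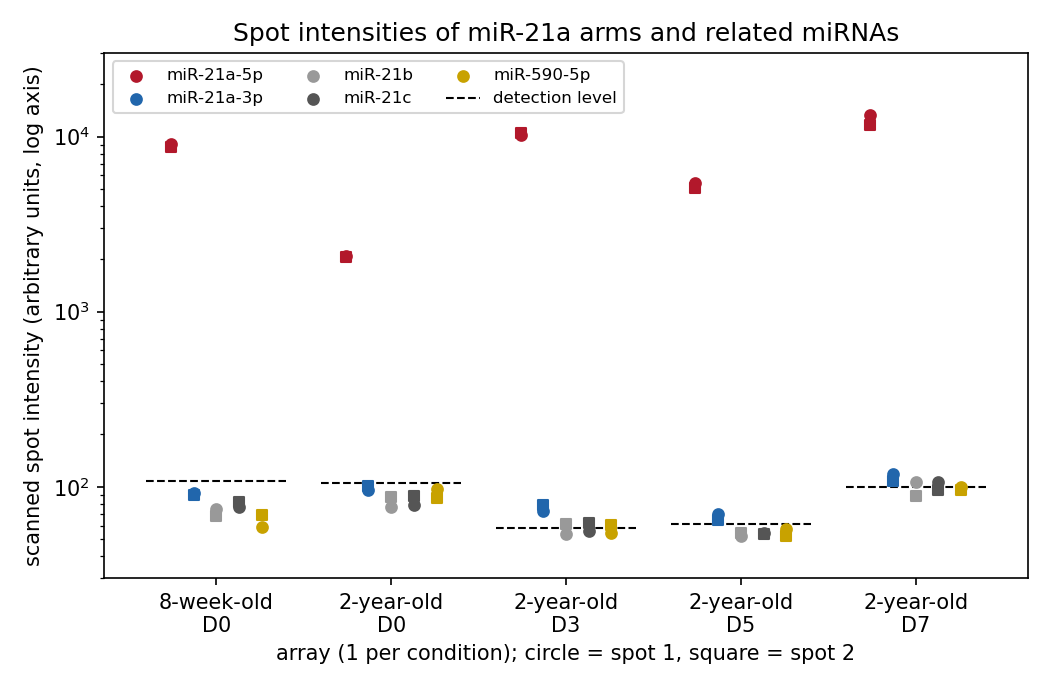
Scanned intensity (arbitrary units, log axis) of each spot of miR-21a-5p, miR-21a-3p, miR-21b, miR-21c and miR-590-5p on the 5 arrays, 1 array per condition, with circles for the first spot, squares for the second and dashed lines for the detection level of each array. The miR-21a-5p spots lie between 2048 and 13310 and are lowest at aged D0, and all other spots lie near the dashed lines, at or below 119.

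To compare arrays, the intensities were background corrected and quantile normalized over the 5 arrays, which gives every array the same distribution of values. The error given with a ratio is the SD of its log2 value, pooled over the repeat spots of many miRNAs. For miR-21a-5p these were all miRNAs bright on both arrays, and for miR-21a-3p all that were bright on neither. This SD covers the array alone and not the difference between mice. On the normalized scale miR-21a-5p stood at 2325 in the aged and 3981 in the young unwounded skin, and at 13263, 9173 and 12027 in the wounds of D3, D5 and D7.

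Wounded aged skin therefore held several times more miR-21a-5p signal than unwounded aged skin at each day. At D3 the ratio to D0 was 5.70 (log2 2.51 ± 0.14, SD from repeat spots, 1 array per condition), with 5.34 and 6.09 from the separate spots. At D5 it was 3.95 (log2 1.98 ± 0.13), with 4.03 and 3.86 from the spots. At D7 it was 5.17 (log2 2.37 ± 0.25), with 5.34 and 5.01 from the spots. These log2 ratios were 17.5, 14.8 and 9.60 times the repeat-spot SD, and all 3 rest on the same D0 array.

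Few miRNAs moved as far. Taking all miRNAs that were detected on either array of a comparison, the D3/D0 ratio was 2 or more for 3.44%, the D5/D0 ratio for 2.87% and the D7/D0 ratio for 2.56%, while 2.65%, 2.41% and 1.79% were at least 2-fold lower. Among miRNAs bright on both arrays, where ratios are measured well above background, the shares at least 2-fold higher were 14.5%, 7.84% and 7.88%. Among these bright miRNAs, 4 of 206 others had a higher ratio than miR-21a-5p at D3, 3 of 203 at D5 and 2 of 202 at D7. The median ratio of the bright miRNAs was 0.781, 0.932 and 0.895 in the same order, and relative to it miR-21a-5p was 7.30-fold, 4.23-fold and 5.78-fold higher.

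**Figure D2:**
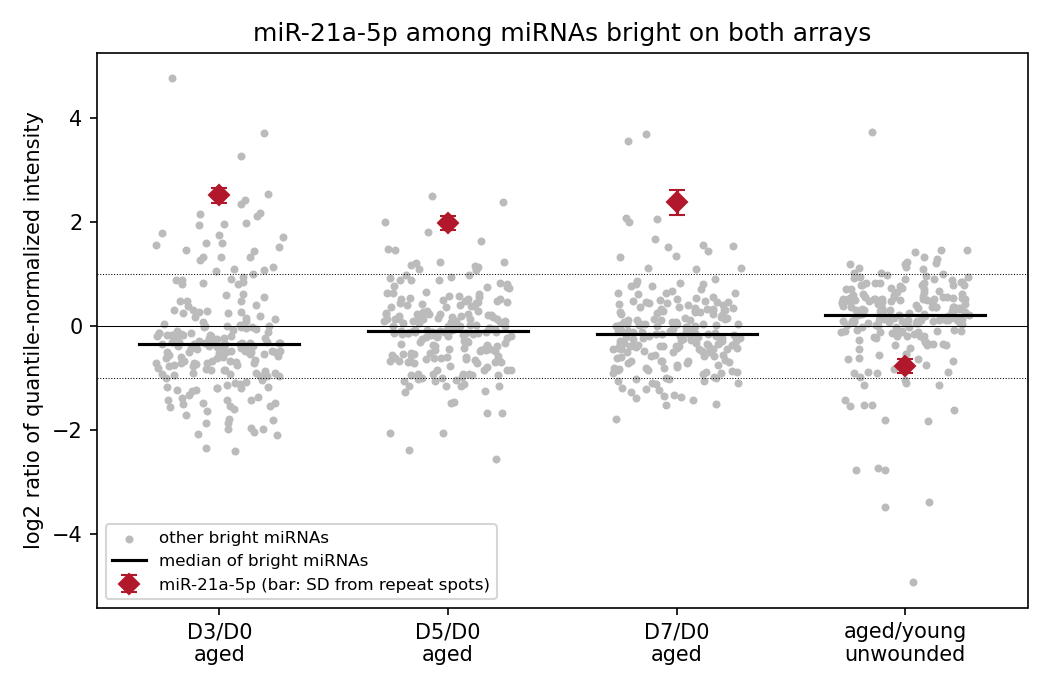
Log2 ratio of quantile-normalized intensity for each miRNA bright on both arrays (grey points, 203 to 210 per comparison), with their median as a black line, 2-fold limits as dotted lines and miR-21a-5p as a red diamond whose bar is the SD from repeat spots. miR-21a-5p lies near the top of the points at D3, D5 and D7 over D0, with 4, 3 and 2 miRNAs above it, and below most points in unwounded aged over young skin.

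The miRNAs above miR-21a-5p are named here after their values were seen. At D3 they were miR-30c-1-3p (27.1-fold), miR-6931-5p (13.0-fold), miR-762 (9.58-fold) and miR-7221-3p (5.79-fold), the last within the spot error of miR-21a-5p. At D5 they were miR-762 (5.65-fold), miR-2137 (5.19-fold) and miR-30c-1-3p (3.98-fold), the last within the spot error of miR-21a-5p. At D7 they were miR-133b-5p (12.8-fold) and miR-7239-3p (11.7-fold). None of them was above miR-21a-5p on all 3 days. Of the 199 miRNAs bright on all 4 aged arrays, 34 were higher than D0 on each day, and 4 were at least 2-fold higher on each, namely miR-21a-5p, miR-2137, miR-30c-1-3p and miR-762. miR-21a-5p differed from the other members of that group in base composition, with a GC content of 36.4% against 85.7% for miR-2137, 54.5% for miR-30c-1-3p and 81.8% for miR-762. GC content affects hybridisation, and the bright miRNAs within 5 percentage points of miR-21a-5p had median ratios of 0.657 at D3 (47 miRNAs), 0.906 at D5 (45) and 1.01 at D7 (46), with 0 of them above miR-21a-5p on any of the days.

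Within the wound series the guide strand was lower at D5 than at D3 and D7 on the normalized scale. The D5/D3 ratio was 0.692, a difference of 4.29 times the repeat-spot SD, and D7/D5 was 1.31, a difference of 1.79 times it. D7 and D3 were not separated, since their ratio of 0.907 lay within the spot error, with 1 and 0.822 from the separate spots. The first spots read 10145 at D3 and 13310 at D7 before normalization. They became equal because quantile normalization gives the same value to the same rank on each array. Over the 11 settings the D7/D3 ratio ran from 0.764 to 1.89. From low to high the normalized levels were thus ordered aged D0, young D0, aged D5, and then aged D7 and D3, which did not differ beyond their spots. This order was found in 7 of 11 ways of processing the arrays, with aged D0 lowest and D5 the lowest wound in all 11. The 7 are not independent, since the offset and subtraction settings keep the quantile normalization. Young D0 lay above aged D5 without normalization and when scaled to the median, the spiked-in controls or the 5S probes.

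The size of the ratios depended on how the arrays were put on a common scale. Over the 11 settings the D3/D0 ratio of miR-21a-5p ran from 3.25 (scaled to spiked-in control RNAs) to 8.10 (cyclic loess). The D5/D0 ratio ran from 1.92 to 4.92 under the same settings, and the D7/D0 ratio from 3.78 (scaled to the 75th percentile of detected miRNAs) to 7.19 (scaled to probes for 5S ribosomal RNA). The ratio was above 1 in every setting on each day, and it was under 2 only at D5 with the spiked-in controls. Divided by the bright median, the ratios spread less between settings, with 6.16 to 8.94 at D3, 3.28 to 5.12 at D5 and 4.98 to 7.24 at D7. The number of bright miRNAs above miR-21a-5p was 3 to 6, 2 to 3 and 2 to 4. This narrowing was in part fixed in advance. Scaling to the median, the 75th percentile, the spiked-in controls or the 5S probes changes each array by 1 factor, which the division cancels. These settings and no normalization all gave 6.16, 3.28 and 4.98 and the same counts.

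**Figure D3:**
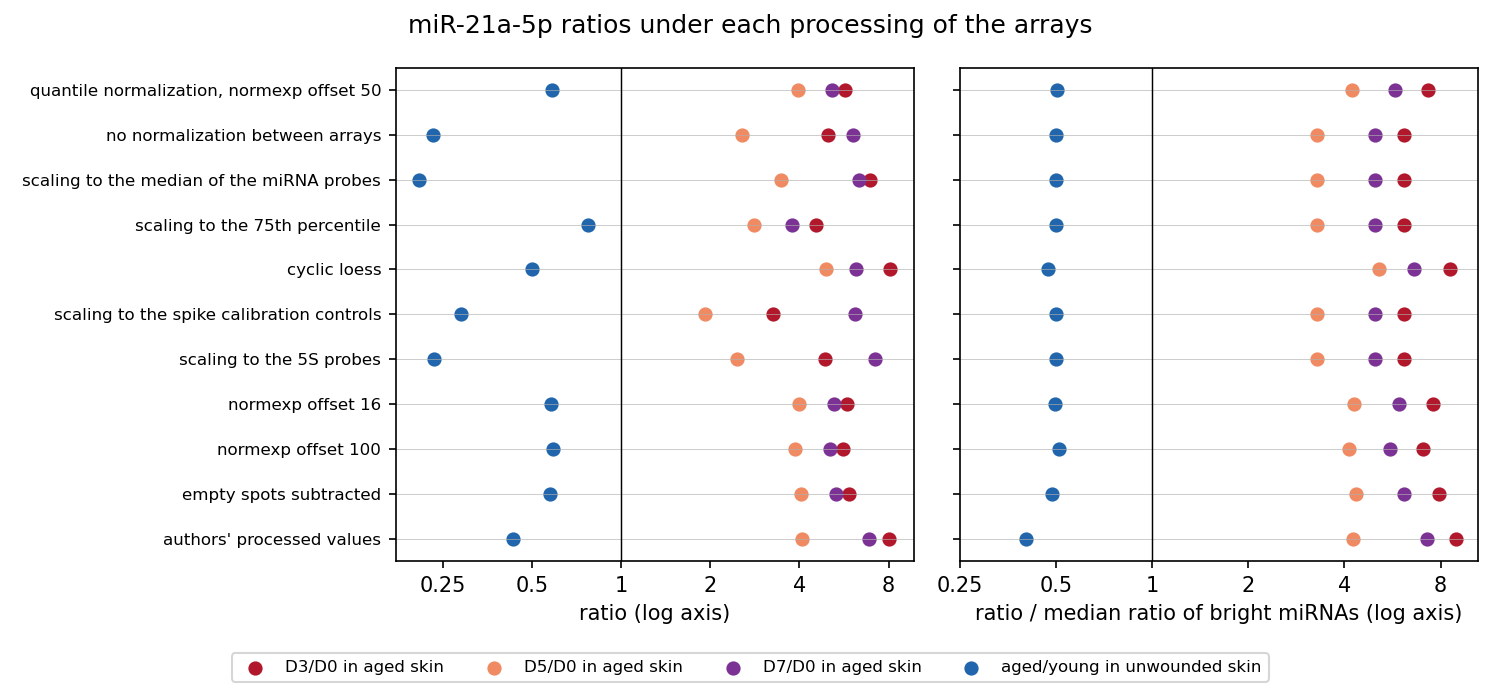
Ratios of miR-21a-5p (left, log axis) and the same ratios divided by the median ratio of the miRNAs bright on both arrays (right, log axis) for 11 ways of processing the arrays, with 1 point per comparison. On the left the wound ratios run from 1.92 to 8.10 and the aged over young ratio from 0.208 to 0.773, and on the right the points of each comparison lie closer together. On the right, settings that scale each array by 1 factor coincide with no normalization.

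In unwounded skin, miR-21a-5p was lower in aged than in young mice. The aged/young ratio was 0.584 (log2 -0.78 ± 0.14, SD from repeat spots, 1 array per condition), or 1.71-fold lower in aged skin, with 0.563 and 0.605 from the separate spots. That difference was 5.63 times the repeat-spot SD but under the 2-fold threshold, which 6.03% of the 779 miRNAs detected on either array passed in this direction. In the other direction 2.31% passed it. The bright miRNAs had a median ratio of 1.16, and 186 of 209 others had a higher aged/young ratio than miR-21a-5p. Here the scale mattered more than in the wounds: without normalization miR-21a-5p was 4.32-fold lower in aged skin, and over the 11 settings the ratio ran from 0.208 (scaled to the median of all miRNAs) to 0.773 (75th percentile). It was below 1 in each of them. Relative to the bright median it ran from 0.403 to 0.513, a value that scaling by 1 factor per array cannot change.

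Set against the young unwounded array, which does not share the aged D0 array, the aged wounds held 3.33-fold more miR-21a-5p at D3, 2.30-fold more at D5 and 3.02-fold more at D7. These ratios were not stable in direction. The D3 ratio was 0.938 when scaled to the spiked-in controls, and the D5 ratio was 0.592 without normalization, 0.720 scaled to the median, 0.553 to the spiked-in controls and 0.575 to the 5S probes. The D7 ratio was above 1 in all 11 settings, at 1.32 to 3.10.

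The passenger strand stayed at the level of the background. The miR-21a-3p spots read 96.3 and 101 before wounding in aged mice, and 92.3 and 89.9 in young mice. In the wounds they read 72.9 and 78.2 at D3, 69.5 and 64.2 at D5, and 119 and 107 at D7. The array mean was 0.850 to 1.30 times the detection level, and it was under that level on both unwounded arrays. Its normalized intensity was 83.6 at aged D0, 91.9, 87.7 and 83.7 at D3, D5 and D7, and 80.0 in young D0. Since miR-21a-3p was not well above background in unwounded skin, no fold is given. The differences between the wounds and aged D0, and between aged and young unwounded skin, were within the spot error, with SDs of a log2 ratio of 0.16 to 0.27. No change of miR-21a-3p was detectable at this signal, which does not show that it was constant.

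The miRNAs most likely to share a probe with miR-21a-5p gave almost no signal. miR-21b read 53.1 to 97.3 and was detected on 0 of the 5 arrays. miR-21c, which has the same first 15 bases, read 54.2 to 101 and was detected on 2 arrays, at 1.02 times the detection level or less. miR-590-5p read 54.9 to 98.1 and was detected on 0 arrays. The arms, miR-21b and miR-21c sat in neighbouring rows of the array (rows 42 to 45 of column 4, and rows 64 to 67 of column 19), and the rows next to the bright miR-21a-5p spots stayed near the level of the empty spots. No related probe therefore followed the guide strand through the wound.

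The 5 miRNAs whose profile lay nearest to miR-21a-5p were ranked by the root mean square difference of centred log2 levels over the 5 arrays, among 497 others detected on all of them. Their distances were 0.44 for miR-346-3p, 0.51 for miR-142a-5p, 0.52 for miR-223-3p, 0.53 for miR-706 and 0.55 for miR-6937-5p, against a median distance of 1.04 for all candidates. miR-142a-5p, a miRNA of blood cells, was 6.11-fold, 3.28-fold and 4.39-fold higher than D0 at D3, D5 and D7, and had an aged/young ratio of 0.268. At aged D0 it read 121, close to the detection level of 105, so the sizes of these ratios are uncertain. Its ratio to D0 ran from 1.78 to 7.22 at D5 and from 3.10 to 10.2 at D7 over the 11 settings. miR-223-3p, a miRNA of neutrophils and other myeloid cells, was 15.3-fold, 8.76-fold and 8.14-fold higher than D0, with an aged/young ratio of 0.243. Both were higher at each day and lower in aged than in young unwounded skin in all 11 settings. The profiles of miR-346-3p, miR-706 and miR-6937-5p were flatter, with wound ratios between 1.64 and 3.18. Their aged/young ratios were 0.938, 0.713 and 1.43, so the last was not lower in aged unwounded skin on this scale. miR-346-3p read 134 at aged D0, also near the detection level, so the sizes of its ratios are uncertain. With the empty spots subtracted its wound ratios were 6.31, 3.71 and 3.48. With the authors' processed values the ranks of the 5 were 4, 5, 17, 2 and 13 in the order above. Of the 5, only miR-6937-5p was bright on all 5 arrays. The 5 points of a profile share the D0 array and the scaling, so the distances describe these arrays only.

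**Figure D4:**
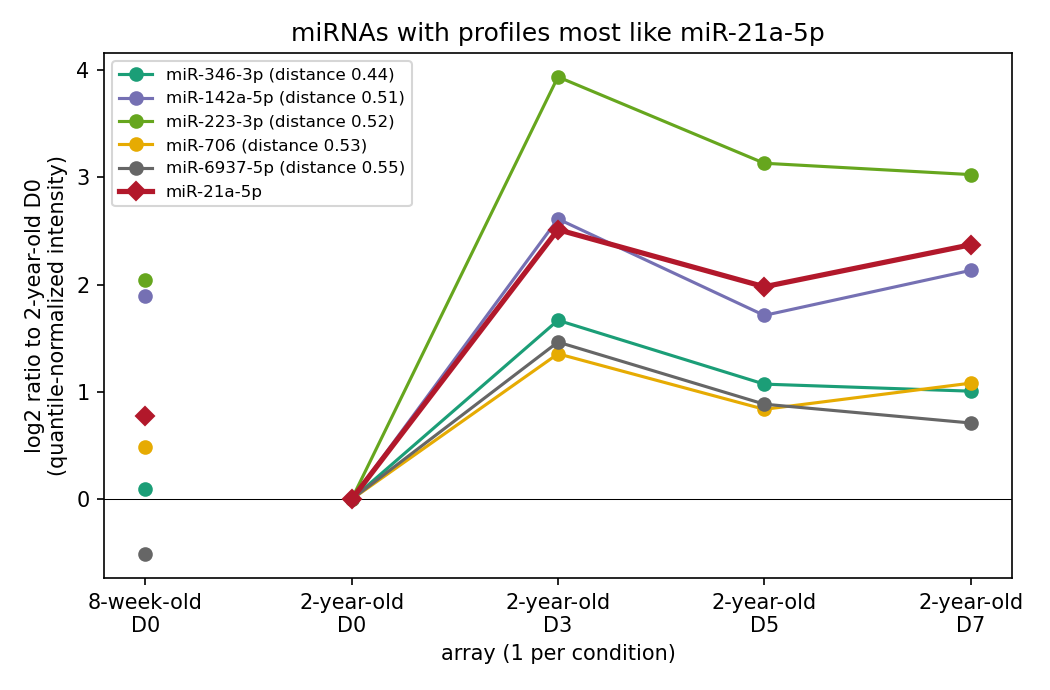
Log2 ratio to aged D0 of quantile-normalized intensity for miR-21a-5p and the 5 miRNAs with the nearest profiles, with 1 array per condition, a line joining the aged arrays and separate points for young D0. miR-142a-5p runs close to miR-21a-5p after wounding, miR-223-3p lies above both, and miR-346-3p, miR-706 and miR-6937-5p lie below.

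Most members of a list of leukocyte miRNAs were higher in the wounds, as miR-21a-5p was. The raw intensities, background included, of 5 leukocyte miRNAs (miR-223-3p, miR-142a-3p, miR-142a-5p, miR-150-5p and miR-155-5p) were summed. The sum was 901 in unwounded aged skin, 4071 in D3, 2389 in D5 and 4172 in D7 wounds, and 5829 in unwounded young skin. The sum was lowest in unwounded aged skin, as was miR-21a-5p, but it was highest in young skin, where the raw intensity of miR-21a-5p was below that of the D3 and D7 wounds. That comparison is on the raw scale. After normalization miR-223-3p was 4.12-fold higher in young than in aged unwounded skin, under its wound ratios of 15.3, 8.76 and 8.14. miR-142a-3p was at least 3.89-fold higher in young skin, over its lower bounds at D3 and D5. Its lower bound at D7, 3.75-fold, was too close to put young skin and D7 in order. Scaled to the 75th percentile, that order was reversed, with a D7/D0 ratio of 2.81 and an aged/young ratio of 0.417. Against D0, 3 of the 5 were at least 2-fold higher at D3, 3 at D5 and 4 at D7, with 0 lower, and 3 were at least 2-fold lower in aged than in young unwounded skin. Over the 11 settings the number at least 2-fold higher ran from 2 to 4 at D3, 1 to 4 at D5 and 3 to 5 at D7. The number at least 2-fold lower in aged than in young skin ran from 3 to 5. Of all miRNAs detected in each comparison, 3.44%, 2.87% and 2.56% were higher by that much, and 6.03% were lower in aged than in young skin. miR-142a-3p was not detected at aged D0, and with it at its lower bound (at least 2.39-fold, 1.30-fold and 3.75-fold) the median ratios of the list were 2.39 at D3, where it is that probe's bound, 2.01 at D5, 3.75 at D7, again that bound, and 0.268 in aged over young skin. The medians of all miRNAs detected were 0.999, 1.03, 1.02 and 0.990. At aged D0 miR-142a-5p and miR-155-5p also read close to the detection level of 105, at 121 and 123, so the sizes of their ratios are uncertain. miR-150-5p, a miRNA of lymphocytes, had ratios of 0.743, 1.48 and 1.08 and so did not follow miR-21a-5p at D3, and miR-223-3p alone made up 2804 of the summed 4071 at D3. The part of leukocytes in the miR-21a-5p ratios was not tested, and in whole skin more cells of a type and more of the miRNA per cell cannot be told apart.

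The other cell type lists moved in other ways. The raw intensities of the 7 epithelial miRNAs (the miR-200 family, miR-203-3p and miR-205-5p) summed to 38489 in aged and 46538 in young unwounded skin, and to 16244, 17340 and 27476 in D3, D5 and D7 wounds. After normalization their median aged/young ratio was 1.45, the other direction from the raw sums, and it was above 1 in 7 of 11 settings. Of these 7 miRNAs, 5 were at least 2-fold lower at D3, 3 at D5 and 0 at D7. Of all miRNAs detected, 2.65%, 2.41% and 1.79% were. Most of those lay near background, where ratios are pulled towards 1, and the share lower among bright miRNAs was not counted. In the other direction at D3 the bright share was 14.5% against 3.44%. The epithelial medians were 0.428, 0.536 and 0.571 at D3, D5 and D7, against 0.781, 0.932 and 0.895 for bright miRNAs. miR-200c-3p alone of the 7 was at least 2-fold higher, at D3 (2.10-fold). Over the settings the number at least 2-fold lower ran from 4 to 6 at D3, 3 to 7 at D5 and 0 to 6 at D7. All 7 were detected on every array. The 5 mesenchymal miRNAs, from fibroblasts and smooth muscle, had median ratios of 0.657, 1.14 and 1.38, of which those at D5 and D7 were above 1 in 6 and 10 of 11 settings. The list was split. At D7 miR-199a-5p was 2.94-fold and miR-199a-3p 2.17-fold higher. miR-143-3p (0.356, 0.447 and 0.578) and miR-145a-5p (0.444, 0.765 and 0.768) lay below 1 on each day in all 11 settings. Skeletal muscle miRNAs, which come with the thin muscle layer under the back skin, were lower, with 4 of 4 at least 2-fold lower at D3. The same 2.65% carries the limit given above for the epithelial list. Their median at D3 was 0.294, against 0.781 for bright miRNAs. miR-126a-3p, the endothelial miRNA, had ratios of 0.714, 1.17 and 1.02. Of the erythroid miRNAs miR-451a, miR-486a-5p and miR-144-3p, none was at least 2-fold higher at any day. miR-486a-5p was lower on each, with ratios of 0.236, 0.450 and 0.233, miR-451a had ratios of 0.601, 0.927 and 0.437, and miR-144-3p was detected on the D3 array only. Relative to the list medians, miR-21a-5p was 13.3-fold, 7.36-fold and 9.06-fold higher than the epithelial miRNAs at D3, D5 and D7, and 8.69-fold, 3.47-fold and 3.75-fold higher than the mesenchymal ones. These values were above 1 in all 11 settings, though scaling an array by 1 factor cannot change them. Among the leukocyte miRNAs, miR-223-3p lay above miR-21a-5p on each day and miR-142a-5p at D3. With the spiked-in controls miR-142a-5p lay below miR-21a-5p at D3, at 3.10 against 3.25. That order was the same without normalization and with the other scalings by 1 factor per array. With the empty spots subtracted miR-142a-5p lay above miR-21a-5p also at D5 (7.22 against 4.05) and D7 (10.2 against 5.32).

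Most other miRNAs known from injury and inflammation did not share the course of the guide strand. Of 15 such miRNAs, all detected, 1 was at least 2-fold higher and 4 were at least 2-fold lower at D3, 2 and 1 at D5, and 4 and 2 at D7. The shares of all miRNAs detected that were higher and lower were 3.44% and 2.65% at D3, 2.87% and 2.41% at D5, and 2.56% and 1.79% at D7. Among bright miRNAs the shares higher were 14.5%, 7.84% and 7.88%, and the shares lower were not counted. The median ratios of the list were 0.806, 0.809 and 0.943, against 0.781, 0.932 and 0.895 for bright miRNAs. The list medians of D3 and D7 were above 1 in 3 and 4 of the 11 settings. On each day miR-223-3p was the 1 member above miR-21a-5p and 14 lay below it. miR-155-5p, a regulator of inflammatory cells, had ratios of 1.84, 2.01 and 2.22, though its D3 ratio was 0.984 with the spiked-in controls. miR-31-5p, a miRNA of activated keratinocytes, went the other way, with 0.196 at D3, 0.629 at D5 and 0.467 at D7. miR-378a-3p also lay below 1 on each day, at 0.275, 0.461 and 0.351, and miR-146a-5p, a brake on NF-kappaB signalling, had ratios of 0.536, 0.744 and 0.943. miR-29b-3p, which targets collagen messenger RNAs, had ratios of 1.76, 1.18 and 2.90.

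In unwounded skin the same list was split differently. There 12 of the 15 had a higher aged/young ratio than miR-21a-5p and 3 had a lower one, namely miR-223-3p (0.243), miR-29b-3p (0.324) and miR-29c-3p (0.283). miR-31-5p stood opposite to miR-21a-5p here too, with an aged/young ratio of 13.2. The list's median aged/young ratio was 1.18, against 0.990 for all miRNAs detected, and it fell below 1 in 4 of 11 settings, with a lowest value of 0.436.

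**Figure D5:**
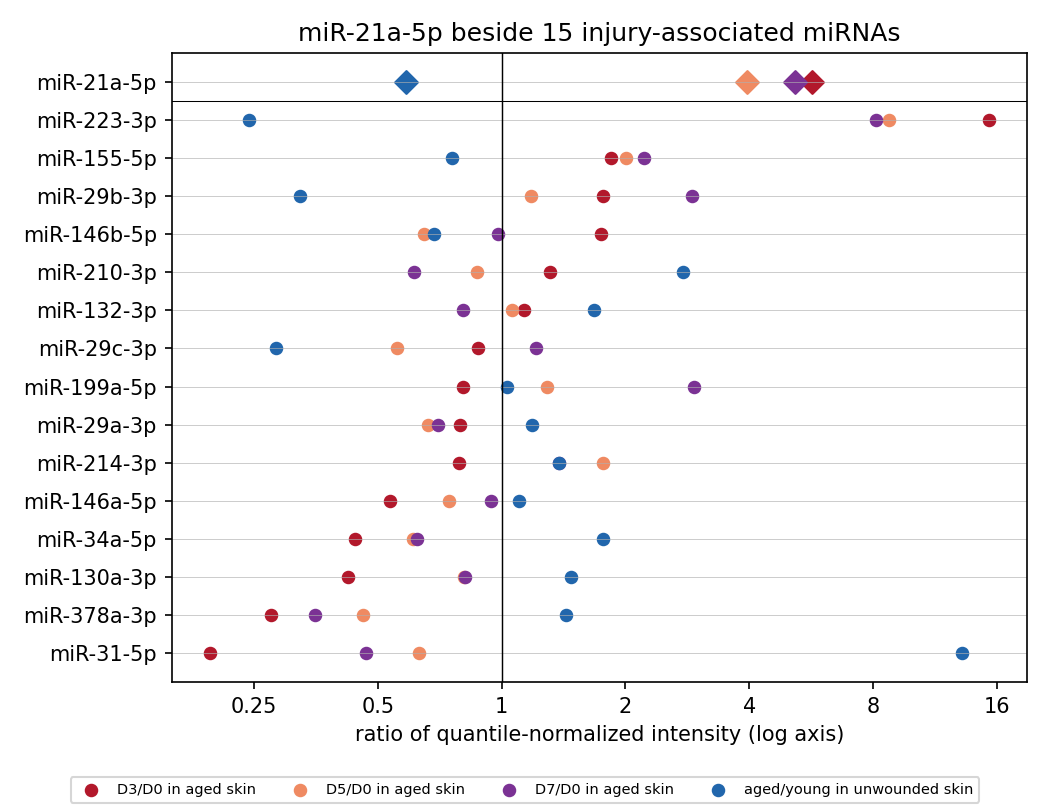
Ratio of quantile-normalized intensity (log axis) for miR-21a-5p (diamonds, top row) and 15 injury-associated miRNAs (circles), with 1 point per comparison and 1 array per condition. miR-223-3p is the 1 listed miRNA to the right of miR-21a-5p at D3, D5 and D7, and miR-31-5p lies to the left of 1 after wounding and at 13.2 in aged over young unwounded skin.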

How the data were processed

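Both deposited kinds of value were used. The authors deposited scanner files with linear, unnormalized spot intensity values and empty background columns, and a table of processed intensity per miRNA whose normalization is not given in the sources used here. Labelling and hybridisation were done by a service provider, per the labels. Arrays were assigned to conditions from their labels. All spots were background corrected with limma 3.58.1 (R 4.3.3; normexp, offset 50), fitted on the spot intensities alone. Controls (11 spike and 5 5S probes, empty spots) were dropped, log2 values were quantile normalized over 5 arrays, and both spots were averaged. Ratios were formed in Python 3.11.15 (pandas 2.3.3, numpy 2.4.6, matplotlib 3.10.9). Quantile normalization removes any change shared by all miRNAs. The array median was 62.9 to 111, near the empty spots (means of 52.9 to 96.9), so most miRNAs had ratios pulled towards 1 by the offset; precision is limited by having 1 array per condition. Authors' values below 1 were set to 1. Alternatives were no normalization, scaling to the median, the 75th percentile, spike or 5S controls, cyclic loess, offsets of 16 and 100, subtraction of the empty spots, single spots and the authors' values. The offset, subtraction and single-spot alternatives kept the quantile normalization. miRNAs named were both arms, their relatives by name or seed, the 5 nearest profiles and the fixed lists. The scripts were tested on simulated data. The members and lists were chosen with earlier results of these data known.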

Additional observations from a re-analysis of the deposited data

How the results depend on the processing

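Of 96 values of the arms' 4 main ratios under alternatives, 52 stayed within 1 repeat-spot SD, and all values of miR-21a-5p kept their direction. For miR-21a-5p the D3/D0, D5/D0, D7/D0 and aged/young ratios were 8.10, 4.92, 6.19 and 0.501 with cyclic loess, 4.57, 2.80, 3.78 and 0.773 scaled to the 75th percentile, 6.94, 3.45, 6.35 and 0.208 scaled to the median, 3.25, 1.92, 6.14 and 0.289 scaled to the spike controls, and 4.88, 2.47, 7.19 and 0.233 scaled to the 5S probes. Without normalization the D3/D0, D5/D0 and aged/young ratios were 5.01, 2.56 and 0.231, and with the authors' values D3/D0, D7/D0 and aged/young were 8.03, 6.88 and 0.431. For miR-21a-3p, not detected in unwounded skin, the quotients show only how each setting treats background and are not fold changes. The 4 were 3.15, 2.14, 1.39 and 2.03 after subtraction of the empty spots and 0.714, 0.843, 0.597 and 3.91 at the 75th percentile. D3/D0, D5/D0 and aged/young were 1.59, 1.25 and 1.86 with the authors' values and 0.508, 0.576 and 1.46 with the spike controls. D3/D0 and D5/D0 were 0.783 and 0.769 without normalization and 0.763 and 0.742 with the 5S probes. The ratio of the wounds to young skin reversed at D3 (0.938, spike controls) and at D5 (0.592 without normalization, 0.720 median, 0.553 spike controls, 0.575 5S probes). The causes were not tested.

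Counts of miRNAs past 2-fold moved far more than miR-21a-5p did. At D3 61 were higher (26 to 552 over the settings) and 47 lower (26 to 890), at D5 31 (5 to 297) and 26 (20 to 132), at D7 40 (16 to 547) and 28 (3 to 279), and in aged over young skin 18 (1 to 493) and 47 (17 to 256). The group at least 2-fold higher on all days held 2 to 11 miRNAs, with miR-21a-5p among them in 10 of 11 settings. No paired analysis was possible because no condition had a second array. Signal over background limits miR-21a-3p, and the single arrays limit every ratio.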
